A study of Mus musculus with 19 samples.

Results

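Iron storage and transport genes were followed in sorted brain and spinal cord cells of mice with experimental autoimmune encephalomyelitis (EAE), an induced model of multiple sclerosis. The set is a list of 8 genes, namely Fth1, Ftl1, Trf, Tfrc, Slc40a1, Hmox1, Cp and Slc11a1, matched by symbol with letter case ignored. Of these, 6 had a row in the astrocyte table and 4 in the microglia and monocyte tables (Fth1, Ftl1, Trf and Slc11a1), among 6842 gene symbols in all. Slc40a1 and Hmox1 were not analysed here, and Tfrc and Cp were followed in astrocytes alone.

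All mice were wild type C57Bl/6 females at postnatal day 85, and every mouse had EAE, induced with 25 µg of a myelin oligodendrocyte glycoprotein peptide in complete Freund's adjuvant. Before that they received a lentivirus in the brain (pLenti-Gfap-GFP) with GFP and a short hairpin RNA, built around the astrocyte promoter of Gfap. The hairpin was either a scrambled control (shScrmbl) or aimed at Xbp1 (shXbp1), whose product turns on genes of the unfolded protein response. There were 4 shScrmbl and 4 shXbp1 libraries of astrocytes, 4 and 3 of microglia, and 2 and 2 of monocytes. No group lacked EAE or virus. The hairpin is driven in astrocytes, so microglia and monocytes were compared as neighbours of transduced cells, and the labels do not say whether astrocytes were sorted by GFP.

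Cells keep iron in ferritin, a shell built of heavy chains (Fth1), which oxidize iron, and light chains (Ftl1), which help it to form a mineral core. Iron travels in blood and brain fluid on transferrin (Trf) and enters cells through the transferrin receptor (Tfrc). It leaves through ferroportin (Slc40a1) with the help of ferroxidases such as ceruloplasmin (Cp), while heme oxygenase (Hmox1) frees iron from heme and Slc11a1 (NRAMP1) moves iron out of the phagosome of macrophages. In the brain, oligodendrocytes and choroid plexus make transferrin, and microglia and infiltrating macrophages take up iron from debris.

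The ferritin and receptor transcripts carry iron-responsive elements, hairpins bound by iron regulatory proteins when iron is scarce, which block translation from a 5′ UTR and protect the transcript from a 3′ UTR. They are shown because this control acts on ferritin translation, which counts of transcripts do not measure. The letters searched were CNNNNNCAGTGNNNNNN, where the base after CAGTG is not G and the 5 bases on each side of the loop pair, in GENCODE M21 transcripts on GRCm38 (mm10), the build named for these data. Each is given 5′ to 3′ as DNA letters of 30 bases with the loop in capitals, the first 2 from a 5′ UTR and the others from the 3′ UTR of Tfrc.
Fth1, chr19:9982732-9982761, plus strand: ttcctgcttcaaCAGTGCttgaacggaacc
Ftl1, chr7:45459778-45459807, minus strand: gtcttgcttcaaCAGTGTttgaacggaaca
Tfrc, chr16:32631219-32631248, plus strand: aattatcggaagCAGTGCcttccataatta
Tfrc, chr16:32631598-32631627, plus strand: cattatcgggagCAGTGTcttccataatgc
Tfrc, chr16:32631663-32631692, plus strand: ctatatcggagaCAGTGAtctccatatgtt
Tfrc, chr16:32631710-32631739, plus strand: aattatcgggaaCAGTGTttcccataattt
The Fth1 and Ftl1 windows had the same base at 26 of 30 positions. Such letters stood in a 5′ UTR of 0.115% of 20062 protein-coding genes and in a 3′ UTR of 0.479% of 20874 genes, counting UTRs of at least 30 bases on the transcript strand. Trf, Cp and Slc11a1 had no match in their UTRs.

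Libraries were made by 3′ digital gene expression, which samples transcript ends, and the deposited signal of a gene is its count times a factor for that library, set within each cell type's table alone. Total counts were 32842 to 302003 per astrocyte library, 10039 to 122002 in microglia and 15654 to 112676 in monocytes. By counting error only, a gene at 0 may have had a signal as high as 82.7 in astrocyte, 228 in microglia and 152 in monocyte libraries, depending on depth. Astrocyte markers summed to 2362 to 3840 in astrocyte libraries, but Ttr, the choroid plexus gene for transthyretin, made up 14.2% to 26.7% of their counts. Ttr made up 1.69% to 6.25% of counts in microglia and 0.343% to 0.945% in monocytes. The 11 microglia markers all had a row in the astrocyte table, with 1 to 3 of them at 0 in shScrmbl replicates 1, 3 and 4, and a sum of 533 to 1381 in 7 of them and 3083 in shScrmbl replicate 2, against 6278 to 11157 in microglia. Gfap was not analysed here. Xbp1 itself had 49.8 ± 30.3 (SD, n = 4) with shScrmbl and 49.5 ± 22.3 (n = 4) with shXbp1 in astrocytes, from 22 and 28 counts, so that a fall of the targeted transcript was not detectable at this depth.

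Ferritin light chain was among the most abundant transcripts of the myeloid cells. Ftl1 (chromosome 7, 45457944 to 45459884, minus strand) had rank 1 by mean signal in monocytes, 2 in microglia and 5 in astrocytes. As CPM, its share of all counts in a library on the usual scale, it had 36100 ± 13243 (SD, n = 7) in microglia, 36819 ± 13116 (n = 4) in monocytes and 6788 ± 3380 (n = 8) in astrocytes. Every microglia library (22811 to 55355) and every monocyte library (17504 to 46079) lay above every astrocyte library (3513 to 12877). Microglia and monocytes did not differ beyond their spread.

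Ferritin heavy chain differed less between the cell types. Fth1 (chromosome 19, 9980598 to 9985098, plus strand) had 5795 ± 2051 CPM in microglia, 5667 ± 1006 in monocytes and 2986 ± 1031 in astrocytes. The ranges overlapped, with 3242 to 8032 in microglia, 4408 to 6869 in monocytes and 1628 to 4471 in astrocytes. The 3 tables were normalized separately and hold different numbers of genes, so these levels are set side by side without a test. Over the genes present in all 3 tables and without Ttr, the Ftl1 mean in microglia was 3.47 times that in astrocytes instead of 5.32 times, and the Fth1 mean 1.25 times instead of 1.94 times. In bulk samples fewer cells of a type and less RNA per cell cannot be told apart.

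Transferrin followed another order. Trf (chromosome 9, 103204001 to 103230444, minus strand) had 1670 ± 903 CPM in astrocyte libraries, 1172 ± 410 in microglia and 652 ± 23.2 in monocytes. All 8 astrocyte libraries (1015 to 3684) lay above all 4 monocyte libraries (636 to 686), while microglia (601 to 1859) overlapped with both. Slc11a1 (chromosome 1, 74375195 to 74386062, plus strand), a gene of phagocytes, had 231 ± 76.7 in microglia, 129 ± 64.8 in monocytes and 70.4 ± 40.9 in astrocytes. Its ranges of 99.6 to 349, 63.9 to 204 and 30.4 to 132 all overlapped with each other. Tfrc (chromosome 16, 32608920 to 32632794, plus strand) and Cp (chromosome 3, 19957054 to 20009145, plus strand) stood near the limit of detection in astrocytes, with 26.1 ± 20.6 and 40.1 ± 33.2 CPM from 24 and 35 counts in 8 libraries. The plot of signal by library shows these levels on the deposited scale.

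**Figure D1:**
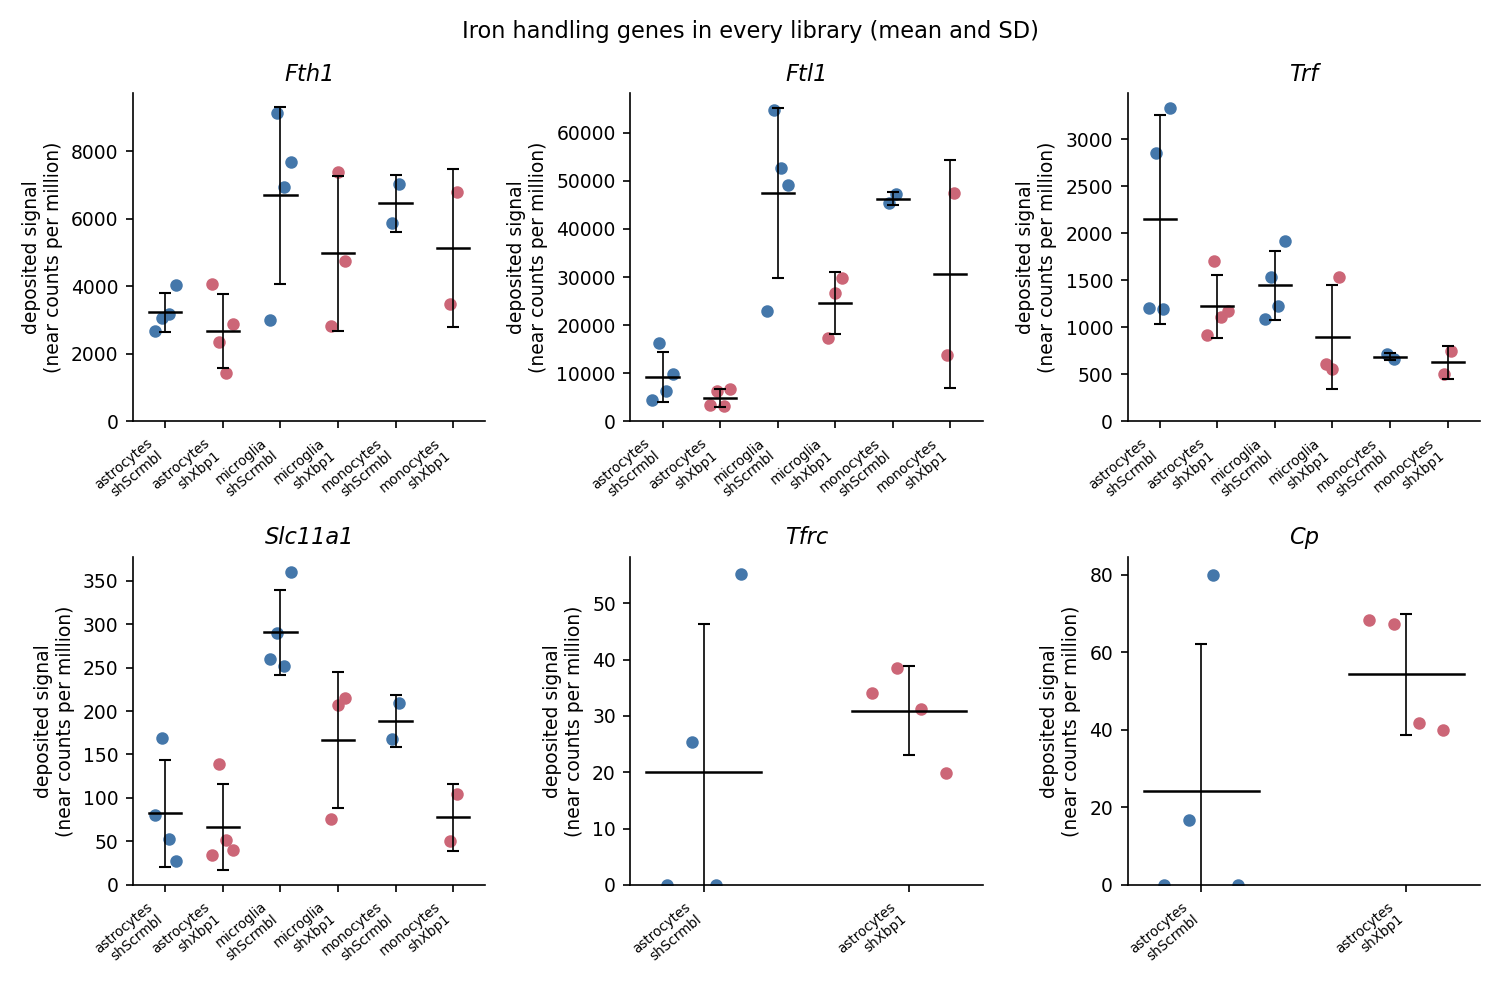
Deposited signal of 6 iron handling genes in every library (points), by cell type and virus, with the mean (wide line) and SD (bar, shown above 0), each panel on its own linear axis. Ftl1 in every microglia library stands above all astrocyte libraries. Among monocytes shXbp1 replicate 1 (13853) lies below astrocyte shScrmbl replicate 2 (16400) on this scale. Tfrc and Cp were at 0 in 2 of 4 shScrmbl astrocyte libraries each.

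The balance of the ferritin chains differed between the astrocyte and the myeloid libraries. The ratio of Fth1 to Ftl1 signal, which does not depend on how a library was scaled, had a geometric mean of 0.462 in astrocytes, 0.160 in microglia and 0.162 in monocytes. In astrocyte libraries the ratio ran from 0.187 over a median of 0.449 to 1.22. In microglia it ran from 0.131 over 0.156 to 0.276. Monocyte libraries had 0.129, 0.149, 0.252 and 0.143. The astrocyte libraries also held choroid plexus marker sums of 148982 to 310309, against astrocyte marker sums of 2362 to 3840. The part of choroid plexus cells in the ratio was not tested.

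Astrocytes lay 1.53 above microglia on the log2 scale (exact two-sided permutation p = 0.000622, adjusted p = 0.00186 over 3 pairs of cell types, n = 8 and 7). They lay 1.51 above monocytes (exact permutation p = 0.00808, adjusted p = 0.0121, n = 8 and 4). Microglia and monocytes differed by -0.02 (exact permutation p = 0.958, n = 7 and 4). Among shScrmbl libraries alone the differences from microglia and monocytes were 1.48 and 1.48, with adjusted p = 0.0857 and 0.2 by the exact permutation test. These are the smallest values that so few libraries can give: every shScrmbl astrocyte ratio (lowest 0.187) lay above every shScrmbl microglia (highest 0.156) and monocyte ratio (highest 0.149). Whether libraries of different cell types came from the same mice is not given, and a 3′ count is no measure of the protein ratio.

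Astrocyte shScrmbl replicate 2 had the lowest ratio of the astrocyte libraries, 0.187, and stood nearest to the myeloid cells. It also held the largest sum of microglia markers (3083) and of the 6 measured monocyte and macrophage markers (4398, against 381 to 1358 in the other 7 libraries). Its Ftl1 signal was 16400 against 3123 to 9763 in the others, while its Fth1 signal, 3066, lay within their range of 1447 to 4059. The part of these cells in the result was not tested. Without that library astrocytes lay 1.71 above microglia in the ratio. At the other end stood shXbp1 replicate 1 with a ratio of 1.22 and the highest sum of oligodendrocyte markers (7094), and without it the difference was 1.33.

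**Figure D2:**
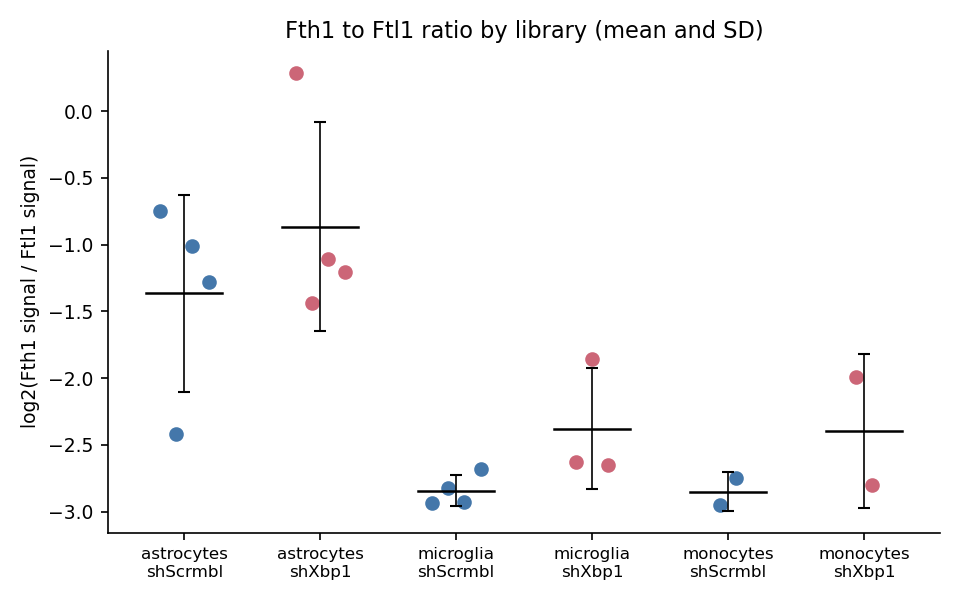
Ratio of Fth1 to Ftl1 signal per library on a log2 axis (points), by cell type and virus, with the mean (wide line) and SD (bar). Astrocyte libraries reach from -2.42 to 0.29, and the 7 microglia libraries from -2.94 to -1.85.

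In astrocytes neither ferritin gene passed a test between the viruses. Ftl1 signal was 4473, 16400, 6391 and 9763 in shScrmbl replicates 1 to 4, and 3325, 6357, 3123 and 6666 in shXbp1 replicates 1 to 4. The shXbp1 libraries held the lowest values and the groups overlapped. The means were 9257 ± 5240 and 4868 ± 1904 (SD, n = 4 and 4), with a limma log2 difference of -0.84 ± 0.45 (SE), a 95% interval from -1.90 to 0.21 and an adjusted p of 0.824. On the recovered counts edgeR gave -0.93 (unadjusted p = 0.00424, adjusted p = 0.634). Without shScrmbl replicate 2, the library rich in microglia markers, limma gave Ftl1 -0.51 and edgeR -0.54.

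Fth1 had 2668, 3066, 3169 and 4026 in shScrmbl and 4059, 2348, 1447 and 2895 in shXbp1 astrocytes. The highest and the lowest Fth1 values were both in shXbp1 libraries. The limma difference was -0.35 ± 0.26 (SE) with an adjusted p of 0.824 and an interval from -0.88 to 0.19, and edgeR gave -0.28. It was -0.08 by limma without shXbp1 replicate 3. Of 6366 astrocyte genes limma called 0% at an adjusted p under 0.05 and edgeR 0.0157%, none of them among the 6 measured members. At an unadjusted p under 0.05 stood 0 of the 6 by limma and 2 (Ftl1 and Trf) by edgeR, against 4.68% and 6.57% of all genes (2.06% by DESeq2). No member had all shXbp1 libraries above or below all shScrmbl libraries, as 2.37% and 0.785% of all genes did. The ratio of both chains did not differ beyond its spread, with geometric means of 0.389 and 0.549 (exact permutation p = 0.514, n = 4 and 4).

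In microglia Ftl1 also had a lower mean with shXbp1, short of the threshold over all genes. Ftl1 signal was 23046, 64797, 52770 and 49240 in shScrmbl replicates 1 to 4, and 17403, 26700 and 29735 in shXbp1 replicates 1 to 3. In 3 of 4 shScrmbl libraries it lay above every shXbp1 library, and shScrmbl replicate 1 lay among the latter. The means were 47463 ± 17588 (SD, n = 4) and 24613 ± 6426 (n = 3), with a limma log2 difference of -0.89 ± 0.31 (SE), a 95% interval from -1.52 to -0.25 and an adjusted p of 0.804 (unadjusted p = 0.0083). With edgeR the difference was -0.95 (unadjusted p = 0.0094, adjusted p = 0.444).

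The Ftl1 call depended on the library and scaling used. Without shScrmbl replicate 1 the limma difference was -1.20 (adjusted p = 0.0193) and edgeR gave -1.21 (adjusted p = 0.0426). With quantile normalization limma gave -0.75 (adjusted p = 0.00242). That scaling sets a value by its rank in the library, so a gene near the top, as Ftl1 was by mean signal, can take few values. Its p is then no measure of the spread of Ftl1 on the deposited scale. Over the other fits with all libraries no test passed. Of 3066 microglia genes 0% passed the adjusted p by limma and 0.391% by edgeR, none of them a member. At an unadjusted p under 0.05 stood 2 of the 4 members by limma (Ftl1 and Trf) and 1 by edgeR (Ftl1), against 5.41% and 5.48% of all genes (2.02% by DESeq2).

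The summed markers of monocytes and macrophages were also lower in shXbp1 microglia on average. The 12 listed genes, all with a row, summed to 5606, 25439, 18203 and 8360 in shScrmbl replicates 1 to 4 and to 1976, 9176 and 4453 in shXbp1 replicates 1 to 3. The libraries with the highest Ftl1 signal, shScrmbl replicates 2 and 3, also had the highest sums. Most of each sum was lysozyme Lyz2, with 20367 and 12929 in these libraries, and monocyte markers of few counts differed in their order. Ly6c2 was also highest there, with 88.3 and 74.7 from 7 and 8 counts, against 51.9 and 0 in shScrmbl replicates 1 and 4. Plac8 was highest in shScrmbl replicate 1 (156, from 3 counts), the control lowest in Ftl1, and lowest among the controls in replicate 3 (37.3). Ccr2, a receptor of infiltrating monocytes, was at 0 in shXbp1 replicates 1 and 2 and had 95.8 in replicate 3, against a median of 66.0 with shScrmbl. At the depth of shXbp1 replicates 1 and 2, 0 counts allow a signal of up to 228 and 207. The shScrmbl values of Ccr2 rest on 1, 14, 3 and 2 counts, and replicate 2 was the highest (177). The part of such cells in the difference was not tested. These values are drawn beside each other in the plot of ferritin and marker signal.

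**Figure D3:**
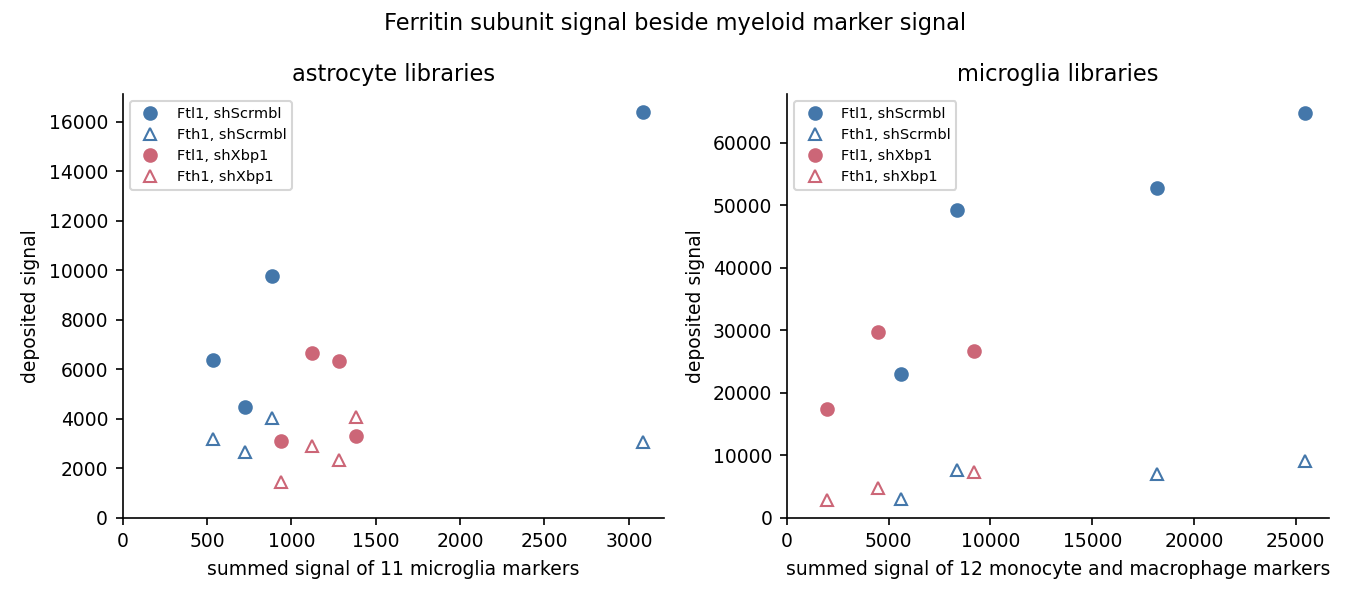
Signal of Ftl1 (filled circles) and Fth1 (open triangles) per library against the summed signal of microglia markers in astrocyte libraries (left) and of monocyte and macrophage markers in microglia libraries (right), on linear axes. The astrocyte library with the highest marker sum (3083) had the highest Ftl1 signal (16400), with Fth1 near that of the others.

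Fth1 in microglia had 3011, 9149, 6955 and 7680 with shScrmbl and 2812, 7382 and 4740 with shXbp1. The groups overlapped along most of their range, and limma gave -0.42 ± 0.38 (SE, adjusted p = 0.814) with an interval from -1.22 to 0.37. The ratio of heavy to light chain was higher in every shXbp1 microglia library (0.162, 0.276 and 0.159) than in any shScrmbl library (0.131, 0.141, 0.132 and 0.156). The difference was 0.46 on the log2 scale, and the exact permutation p of 0.0571 is the smallest that 4 against 3 libraries can give (adjusted p = 0.171 over 3 cell types). It was 0.20 without shXbp1 replicate 2, whose ratio of 0.276 was the highest in microglia.

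In monocytes the difference between viruses rested on 1 library. Ftl1 was 45373 and 47277 with shScrmbl and 13853 and 47442 with shXbp1, and Fth1 was 5869 and 7048 against 3488 and 6804. The low value of both genes came from shXbp1 replicate 1, the shallowest monocyte library with 15654 counts, and shXbp1 replicate 2 lay near or among the controls. By limma the differences were -0.85 ± 0.58 (SE, adjusted p = 0.887) for Ftl1 and -0.40 ± 0.58 (adjusted p = 0.887) for Fth1. Without shXbp1 replicate 1 they were 0.03 and 0.08, and without shXbp1 replicate 2 they were -1.74 and -0.88 (limma adjusted p = 1.68e-06 and 0.00373, edgeR adjusted p = 3.44e-74 and 0.00305), with the lone library assumed to vary like the others. That library also had a monocyte and macrophage marker sum of 6067, against 17901 in shXbp1 replicate 2 and 22987 and 23065 in the controls. Lyz2 made up most of that gap, with 3084 against 11661 to 16463. Ly6c2 had 253 in that library and 251, 321 and 182 in the others. Ccr2 was lowest in that library, with 101 against 209, 489 and 228, while Plac8 had 506 against 1151, 615 and 155. In that library Ly6c2, Ccr2 and Plac8 rest on 5, 2 and 10 counts. The part of such cells in the difference was not tested. Limma called 2.68% of 3775 monocyte genes, none of them a member, and 99 of its 101 calls were at 0 in both shXbp1 libraries, while edgeR called 0.0265%. At an unadjusted p under 0.05 stood none of the 4 members, against 4.77% of genes by limma and 4.66% by edgeR (0.556% by DESeq2). The ratio of Fth1 to Ftl1 gave an exact permutation p of 0.667, where 2 against 2 libraries allow no p below 0.333.

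Transferrin had lower means in all 3 cell types with shXbp1, and no test was passed. In astrocytes Trf was 1204, 2855, 1198 and 3337 with shScrmbl and 921, 1704, 1114 and 1169 with shXbp1. Replicates 2 and 4 of shScrmbl stood above all others, and the remaining 2 overlapped with shXbp1. The limma difference was -0.69 ± 0.33 (SE) with an interval from -1.38 to 0.01 and an adjusted p of 0.824, and edgeR gave -0.81 (unadjusted p = 0.00642, adjusted p = 0.634). Without shScrmbl replicate 4 limma gave -0.42.

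Markers of cells known to make transferrin were measured in the astrocyte libraries. Oligodendrocyte lineage markers, 9 of 10 with a row, summed to 3410, 3230, 3009 and 5847 in shScrmbl and to 7094, 2329, 3851 and 2218 in shXbp1 replicates 1 to 4. The library with the highest sum, shXbp1 replicate 1, had the lowest Trf signal, and the one with the next highest, shScrmbl replicate 4, had the highest. Choroid plexus markers, 9 of 10 with a row, summed to 212658 to 310309 in shScrmbl and 148982 to 275085 in shXbp1 astrocyte libraries, and the part of either cell type in the Trf values was not tested.

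In microglia Trf was 1090, 1539, 1232 and 1920 with shScrmbl and 608, 552 and 1532 with shXbp1. Replicates 1 and 2 of shXbp1 lay below every control, from 8 counts each, and replicate 3, with 64 counts, lay among the controls. Limma gave -0.82 ± 0.40 (SE, adjusted p = 0.804) and edgeR -0.56 (adjusted p = 0.992). Without shXbp1 replicate 3 limma gave -1.28 and edgeR -1.31 (adjusted p = 0.495). Choroid plexus markers in microglia, 5 of 10 with a row, had medians of 24300 with shScrmbl and 40354 with shXbp1. Their ranges overlapped, with 18080 to 64363 and 33737 to 43262, and the highest sum was in shScrmbl replicate 1. Oligodendrocyte lineage markers, 2 of 10 with a row, summed to 345 to 520 with shScrmbl and 670 to 1518 with shXbp1. The part of either cell type in the Trf values was not tested. Monocytes had 713 and 665 against 506 and 754, a limma difference of -0.16 ± 0.63 (SE, adjusted p = 0.954).

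Slc11a1 had lower signal in every shXbp1 library of both myeloid tables without passing a test. Microglia had 260, 290, 252 and 360 with shScrmbl and 76.0, 207 and 215 with shXbp1, from 64 and 13 counts. All 3 shXbp1 libraries lay below all 4 controls, as did 4.92% of microglia genes, while 2.32% lay above. As CPM the microglia groups overlapped, with 225 in shXbp1 replicate 2 and 221 in shScrmbl replicate 3. The limma difference was -0.93 ± 0.51 (SE, adjusted p = 0.804), and edgeR gave -0.62 (adjusted p = 0.996).

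Neutrophil marker sums were lower in the same libraries, from few counts. The sum in microglia (6 of 9 with a row) was 644 to 680 with shScrmbl and 138 to 456 with shXbp1. In monocytes (7 of 9) it was 583 to 783 and 209 to 303. The shXbp1 sums rest on 6, 2 and 12 counts in microglia, with 5 of 6 markers at 0 in replicate 2, and on 6 and 10 counts in monocytes. Single markers could overlap, as S100a8 in microglia had 0 to 189 with shScrmbl and 71.8 to 138 with shXbp1. The part of neutrophils or of other phagocytes in the Slc11a1 values was not tested.

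Monocytes had Slc11a1 values of 168 and 209 against 50.6 and 105, from 35 and 6 counts, and 25% of monocyte genes were likewise lower in both shXbp1 libraries, while 9.85% were higher in both. Limma gave -1.35 ± 0.76 (SE, adjusted p = 0.887). Unlike the ferritin genes, Slc11a1 kept a value of -0.83 without shXbp1 replicate 1. Astrocyte values were 80.2, 169, 53.3 and 27.6 with shScrmbl and 34.1, 140, 52.0 and 39.8 with shXbp1, and the highest one was in shScrmbl replicate 2, the library with the most microglia markers. The astrocyte difference by limma was -0.25 (adjusted p = 0.921) and turned to 0.19 without that library.

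Tfrc and Cp, measured in astrocytes, had higher means with shXbp1 from few counts. Cp was 0, 16.9, 79.9 and 0 with shScrmbl and 68.2, 67.4, 41.6 and 39.8 with shXbp1, from 7 and 28 counts. The highest Cp value was in a shScrmbl library, and those at 0 were replicates 1 and 4, where 0 counts allow a signal of up to 60.2 and 82.7. The limma difference of 3.12 ± 1.51 (SE, adjusted p = 0.824) is set by the zeros on the log2(signal + 1) scale, and edgeR gave 1.37 (adjusted p = 0.761).

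Tfrc was 0, 25.3, 0 and 55.2 with shScrmbl and 34.1, 38.5, 31.2 and 19.9 with shXbp1, from 8 and 16 counts. Its values overlapped, and limma gave 2.33 ± 1.56 (SE, adjusted p = 0.824) and edgeR 0.50 (adjusted p = 0.951). With a pseudocount of 10 the limma differences of Cp and Tfrc were 1.5 and 0.88. At this depth a difference in either gene was not detectable, as the intervals of -0.02 to 6.26 and -0.92 to 5.57 show.

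**Figure D4:**
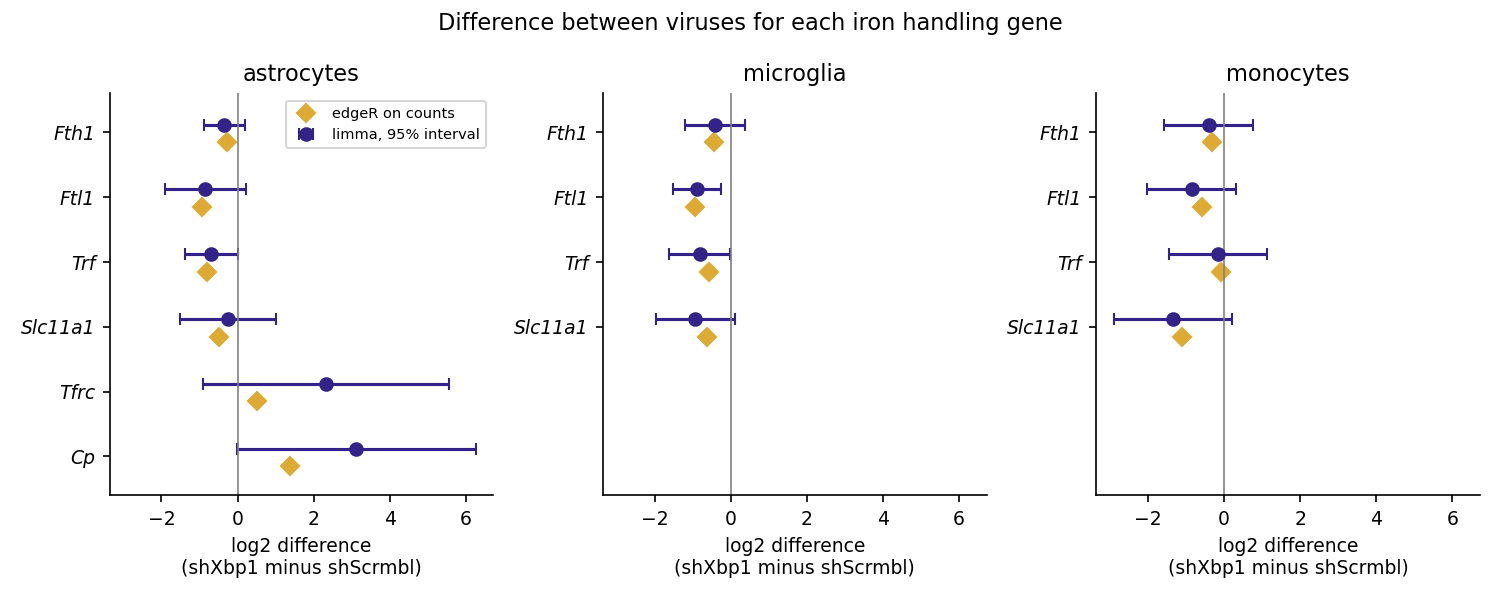
Log2 difference of each iron handling gene between shXbp1 and shScrmbl libraries in 3 cell types, as limma on log2(signal + 1) with its 95% interval (circles) and edgeR on recovered counts (diamonds). Ftl1 and Trf in microglia are the genes whose intervals lie below 0, and none of the 14 differences passed an adjusted p.

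As a set the members had lower means with shXbp1 in most cases. By limma and by edgeR 4 of 6 differences were negative in astrocytes and 4 of 4 in microglia and in monocytes. Over all genes 31.8% of limma and 46.8% of edgeR differences were negative in astrocytes, 65.5% and 55.4% in microglia, and 65.8% and 56.9% in monocytes. The median of the members was -0.30 by limma and -0.38 by edgeR in astrocytes, where all genes had 0.42 and 0.05. In microglia it was -0.85 and -0.59 against -0.39 and -0.09, and in monocytes -0.63 and -0.45 against -0.42 and -0.17.

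Other genes of iron and heme handling gave few differences. Genes of iron sensing, iron chaperones and ferritin turnover had a row for 9 of 12 in astrocytes (5 higher and 4 lower by limma, none called), 5 in microglia (2 and 3, by edgeR 1 and 4) and 6 in monocytes (0 and 6, by edgeR 1 and 5). Pcbp1, a chaperone that hands iron to ferritin, had means of 76.0 and 121 in astrocytes, 60.6 and 166 in microglia and 91.7 and 41.9 in monocytes, for shScrmbl and shXbp1. Its relative Pcbp2 had 102 and 118, 80.8 and 62.9, and 122 and 56.7 in the same order. Bola2, which acts with glutaredoxin in iron-sulfur cluster transfer, had 96.2 and 91.4, 138 and 80.3, and 94.4 and 105. The Pcbp1 means rest on 24 and 58, 14 and 13, and 18 and 4 counts. Those of Pcbp2 rest on 29 and 63, 23 and 6, and 22 and 4. The SD of Pcbp1 was 50.4 and 78.2 in microglia, and 50.6 and 59.2 in monocytes. No gene of this list was called by limma or edgeR in any cell type. Of 18 further genes of iron uptake and export 6 were measured in astrocytes (2 higher and 4 lower, by edgeR 3 and 3), 1 in microglia and 0 in monocytes. The metalloreductases Steap1 and Steap2 had 70.9 and 60.4 with shScrmbl and 68.8 and 68.5 with shXbp1 astrocytes.

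Heme uptake, synthesis and breakdown genes had a row for 10 of 15 in astrocytes (7 higher and 3 lower), 6 in microglia (1 and 5, by edgeR 2 and 4) and 7 in monocytes (4 and 3). One of them, haptoglobin (Hp), which binds free haemoglobin, fell in microglia by edgeR from a mean of 318 to 54.0 (log2 difference -3.06, adjusted p = 0.0136), while limma gave -3.72 (adjusted p = 0.804). These means rest on 100 and 3 counts, and shScrmbl values ran from 51.9 to 782. Neutrophil marker sums were lower in shXbp1 microglia too, and monocyte and macrophage sums were lower on average with overlap, as given above. The part of these cells in the Hp values was not tested. In monocytes Hp had 497 and 344 (limma adjusted p = 0.887). Hmox2, the constitutive heme oxygenase, had 120 and 56.5 in astrocytes, 176 and 162 in microglia and 147 and 176 in monocytes, none of them past a test.

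The list of NRF2 and BACH1, factors that also control ferritin and heme oxygenase genes, with their targets and regulators had a row for 15 of 16 in astrocytes (7 higher and 8 lower, by edgeR 5 and 10), 9 in microglia (2 and 7, by edgeR 4 and 5) and 11 in monocytes (7 and 4, by edgeR 8 and 3). None passed limma or edgeR. The peroxiredoxin Prdx1 had means of 1001 and 856 in astrocytes, 1623 and 1158 in microglia and 1516 and 2402 in monocytes. Thioredoxin (Txn1) had 578 and 438, 1444 and 1116, and 2136 and 2929 in the same order.

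Across all 19 libraries the members did not share 1 pattern. Over 2606 genes in all 3 tables, the genes nearest to Ftl1 by Pearson r of log2(CPM + 1) were the lysosomal protease Ctsb (0.97) and the lysozymes Lyz1 (0.97) and Lyz2 (0.97). The nearest to Slc11a1 were Saa3 (0.86), Ctsd (0.85) and AF251705 (0.85), and the nearest to Fth1 were H2-Eb1 (0.82), Rps16 (0.80) and Rpl37 (0.80). Trf had Gm17644 (0.80), Tmem223 (0.75) and Ktn1 (0.68). Fth1 and Ftl1 had 0.80 with each other and -0.33 and -0.30 with Trf. Slc11a1 had 0.48 with Fth1, 0.75 with Ftl1 and -0.16 with Trf. These values describe 19 points that share their library depth and fall into 3 cell types, so that they mostly order the tables.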

How the data were processed

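The members and gene lists were chosen with earlier results of these data known. The authors deposited 1 table of normalized signal per cell type. Per the submitters' processing notes, BWA 0.7.10, limma 3.34.1 and the build mm10 were used, with no role stated; the counter, annotation and scaling are not given in the sources used here. Every deposited value above 0 was a whole multiple of its column's smallest value within 0.01 (100%), which gave back whole counts (reads or molecules is not stated). No column lacked a sample. The 5 annotated ferritin pseudogenes resemble Fth1 and Ftl1, so reads of those genes may be shared.

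Each table was fitted alone, shXbp1 against shScrmbl, by limma 3.58.1 (log2(signal + 1), empirical Bayes moderation with a mean trend and robust priors). Genes entered where the number of libraries with a signal of 1 or more reached the size of the smaller group, with Benjamini-Hochberg adjustment over all of them; all members with a row passed this filter. Folds of low genes depend on the pseudocount. edgeR 4.0.16 (quasi-likelihood) and DESeq2 1.42.0 on recovered counts, other pseudocounts, filters and scalings, a replicate block and leaving out each library were alternatives. R 4.3.3, Python 3.11.15, scipy 1.17.1 and matplotlib 3.10.9 were used, and the fits were tested on simulated data. Ratios were compared with exact two-sided permutation tests. Named genes were all members, genes among the 4 most abundant of each further list in a table (which of these to print was chosen after their values were seen), and the 3 genes nearest to a member over all libraries; Hp was also given since edgeR called it. Each library was taken as a mouse, since 1 nervous system was taken per mouse; otherwise p-values measure the spread between libraries only. No 2 replicates of the same cell type and virus were alike: chi-square per gene lay between 1.46 and 4.72 over 23 pairs. Depth ran from 10039 to 302003 counts per library.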

Additional observations from a re-analysis of the deposited data

Results flagged for a closer look

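In astrocytes with shXbp1, Slc11a1 in replicate 2 had a signal of 140, apart from the other 3 libraries (34.1 to 52.0) by 0.8299 of the whole range, just past the limit of 0.829 for 4 values. Among the 7 microglia libraries, shXbp1 replicate 2 stood apart in the log2 ratio of Fth1 to Ftl1 with -1.85, where the others lay between -2.94 and -2.63. In 22 groups tested 2 values stood apart, and chance gives about 1 in 20.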

How the results depend on the processing

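Of 220 alternatives for the 14 member differences, 210 kept direction and side of the threshold. Among the 220, replicate blocks in astrocytes and monocytes could change the test but not the difference. Calls over all genes moved from 0 to 1 in astrocytes by edgeR, and from 0 to 2 with equal column totals, 6 with quantile normalization and 12 by edgeR in microglia. In monocytes they moved from 101 to 0 with a pseudocount of 10, with a minimum signal of 50, with quantile normalization and by DESeq2, and to 1 by edgeR. Quantile normalization, which sets a value by its rank in a library, gave Ftl1 -0.75 in microglia and 0 in monocytes. Ftl1 had the highest mean signal in monocytes, and a gene at the top of every library gets the same value by that method. The ratio of Fth1 to Ftl1 between microglia and monocytes turned to 0.070 with summed values and 0.0070 in shScrmbl libraries alone, where astrocytes lay 1.48 above microglia and 1.48 above monocytes, where so few libraries cannot reach the threshold. Over genes in all tables without Ttr, a choice made after seeing the data, Fth1 levels in microglia and monocytes were 1.25 and 1.25 times those in astrocytes. The cause of these changes was not tested.

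Leaving out each library in turn gave 0 to 3 calls in microglia and 0 to 1163 in monocytes. Slc11a1 in astrocytes ranged from -0.68 to 0.19, and Ftl1 in microglia from -1.20 to -0.66. In monocytes Fth1 ranged from -0.88 to 0.081, Ftl1 from -1.74 to 0.035, Trf from -0.44 to 0.13 and Slc11a1 from -1.87 to -0.83. The ratio between microglia and monocytes ranged from -0.15 to 0.19. Depth limits Tfrc, Cp and Slc11a1 most.

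Deviations of same-numbered libraries from their group means had correlations of -0.05 to 0.07 in astrocytes and microglia and -0.15 in monocytes. Not every library correlated best with its own number. With 2 monocyte libraries per group the deviations mirror each other, so every pair gives -0.15 or 0.15. Whether same-numbered libraries shared a mouse or a batch cannot be told from these values. With the replicate block 0, 0 and 112 genes were called in astrocytes, microglia and monocytes. In astrocytes and monocytes, with equal groups, the block cannot change the estimated difference, so only the tests could move there. Under the block Fth1, Ftl1, Trf, Tfrc, Cp and Slc11a1 had -0.35, -0.84, -0.69, 2.33, 3.12 and -0.25 in astrocytes. Under the block microglia had -0.32 for Fth1, -0.84 for Ftl1, -0.67 for Trf and -0.82 for Slc11a1, and monocytes -0.40, -0.85, -0.16 and -1.35, with no member called. Crossing the numbers in monocytes, chosen after seeing the data, gave 114 calls.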
